A study of Mus musculus with 22 samples.

Results

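Socs1, Socs2, Socs3 and Cish, 4 genes of the suppressor of cytokine signalling (SOCS) family, were followed in mouse liver after a single injection of interferon-gamma. They were found by gene symbol among the probe sets that the platform's annotation assigns to 1 symbol, and each was read from the probe set with the highest mean over the arrays, which made 4 of the 8251 genes measured. The series holds 22 arrays of total liver RNA, 1 array per genotype and condition and therefore no replicates of a condition. The 11 SOCS1-/-IFNg-/- arrays came from mice without SOCS1 and without interferon-gamma. The 11 IFNg-/- arrays came from mice that lack interferon-gamma only, so no animal in either group could make the cytokine. In each genotype 8 livers were taken 0.5, 1, 2, 4, 12, 16, 24 and 48 h after an intraperitoneal injection of 4 µg of recombinant interferon-gamma in 100 µl, 2 were taken 4 and 12 h after 100 µl of phosphate-buffered saline (PBS), and 1 was untreated. The number of animals behind an array, whether they were pooled, their age, sex and strain, and how either gene was deleted could not be learned from the labels.

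SOCS proteins are the negative feedback arm of JAK-STAT signalling. A cytokine receptor activates JAK kinases, these phosphorylate STAT transcription factors, and the STATs switch on SOCS genes among their targets. SOCS1 and SOCS3 bind and inhibit JAKs directly. SOCS1 is the main brake on the interferon-gamma receptor, whose kinases are JAK1 and JAK2, and SOCS3 acts mainly at receptors that contain gp130, the shared chain of the interleukin-6 family, whose signal runs through STAT3. CIS, the product of Cish, and SOCS2 restrain growth hormone and prolactin receptors, and both genes are classic targets of STAT5. All members carry a SOCS box, the part that recruits elongins and a cullin and so directs bound proteins to degradation.

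STAT dimers bind palindromes of the form TTCNNNGAA, the gamma-activated sequence, and interferon regulatory factors bind repeats of GAAA. Promoter sequence was available for 3 of the 4 members, from RefSeq on GRCm38.p6, each window running from 250 bases before to 50 bases after the annotated start of the gene. The 250 bases before the start of Socs1 and of Socs3 are shown because these are the members with a motif there. In the Socs1 sequence, on the minus strand at chr16:10785537-10785786, the capitals mark 2 overlapping copies of GAAANNGAAA, at -83 to -74 and -77 to -68 from the start. In the Socs3 sequence, on the minus strand at chr11:117969367-117969616, the capitals mark 1 TTCNNNGAA at -154 to -146. In Cish, on the plus strand, 2 copies of TTCNNNGAA lie just past the start, at 1 to 9 and 12 to 20, and are the capitals of the short stretch at chr9:107296656-107296681.
Socs1 upstream: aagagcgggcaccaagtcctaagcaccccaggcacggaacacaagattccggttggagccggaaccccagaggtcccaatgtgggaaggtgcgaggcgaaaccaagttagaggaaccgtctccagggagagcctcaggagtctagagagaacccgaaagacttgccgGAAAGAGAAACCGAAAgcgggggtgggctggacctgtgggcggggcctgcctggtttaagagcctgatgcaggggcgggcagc
Socs3 upstream: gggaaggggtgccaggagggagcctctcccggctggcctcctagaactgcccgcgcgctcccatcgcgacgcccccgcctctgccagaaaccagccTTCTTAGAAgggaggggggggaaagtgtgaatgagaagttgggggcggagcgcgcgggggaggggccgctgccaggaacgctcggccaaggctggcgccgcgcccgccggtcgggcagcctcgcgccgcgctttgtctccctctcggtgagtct
Cish start: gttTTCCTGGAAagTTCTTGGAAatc
Both strands of 32851 mouse promoters were searched over the same window. TTCNNNGAA occurs in 8.3% of them and GAAANNGAAA in 3.44%. The other spacings searched, TTCNNGAA (8.52% of promoters) and TTC and GAA set 4 bases apart (6.95%), had no match in these 3 windows. A match is a string of letters, and binding was not measured.

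The arrays were comparable in scale, with medians between 5.64 and 5.71 on the log2 scale used throughout. The hepatocyte marker Alb lay between 13.1 and 13.4 on all of them, but another, Tat, ran from 10.1 to 12.1. One array stood furthest apart: the SOCS1-/-IFNg-/- liver at 4 h had a median correlation of 0.972 with the other arrays across genes, against 0.984 to 0.993 for the rest, and the smallest difference between 3' and 5' probe sets of Actb, 0.33. The SOCS1-/-IFNg-/- liver at 12 h had the next lowest correlation and the largest 3' to 5' difference of Gapdh, 1.16, against 0.37 to 0.85 on the others, a sign of RNA quality. Both PBS 12 h livers also stood apart, since a list of 13 interferon-gamma target genes, such as Cxcl9, averaged 7.54 in SOCS1-/-IFNg-/- and 6.95 in IFNg-/- there, against 5.87 to 6.17 on the other 4 control arrays. Members' results are therefore also given without these arrays where the value or call moves. Responses and genotype differences were tested with limma over all 8251 genes, with Benjamini-Hochberg adjustment and a threshold of 0.05. The response at a time is the mean of both genotypes minus the mean of the 6 control arrays, and the genotype difference is SOCS1-/-IFNg-/- minus IFNg-/- within a condition. The genotype difference at each of the 8 interferon-gamma times was also set against the other 10 pairs. The adjustment there covers genes but not the choice among 8 times, and the spread is that between the other 10 pairs. The genotypes or the conditions stand in for replicates, so a p-value reflects the spread between these arrays alone, which may be technical or true change. In whole liver, fewer cells of a type and less RNA per cell cannot be told apart.

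**Figure D1:**
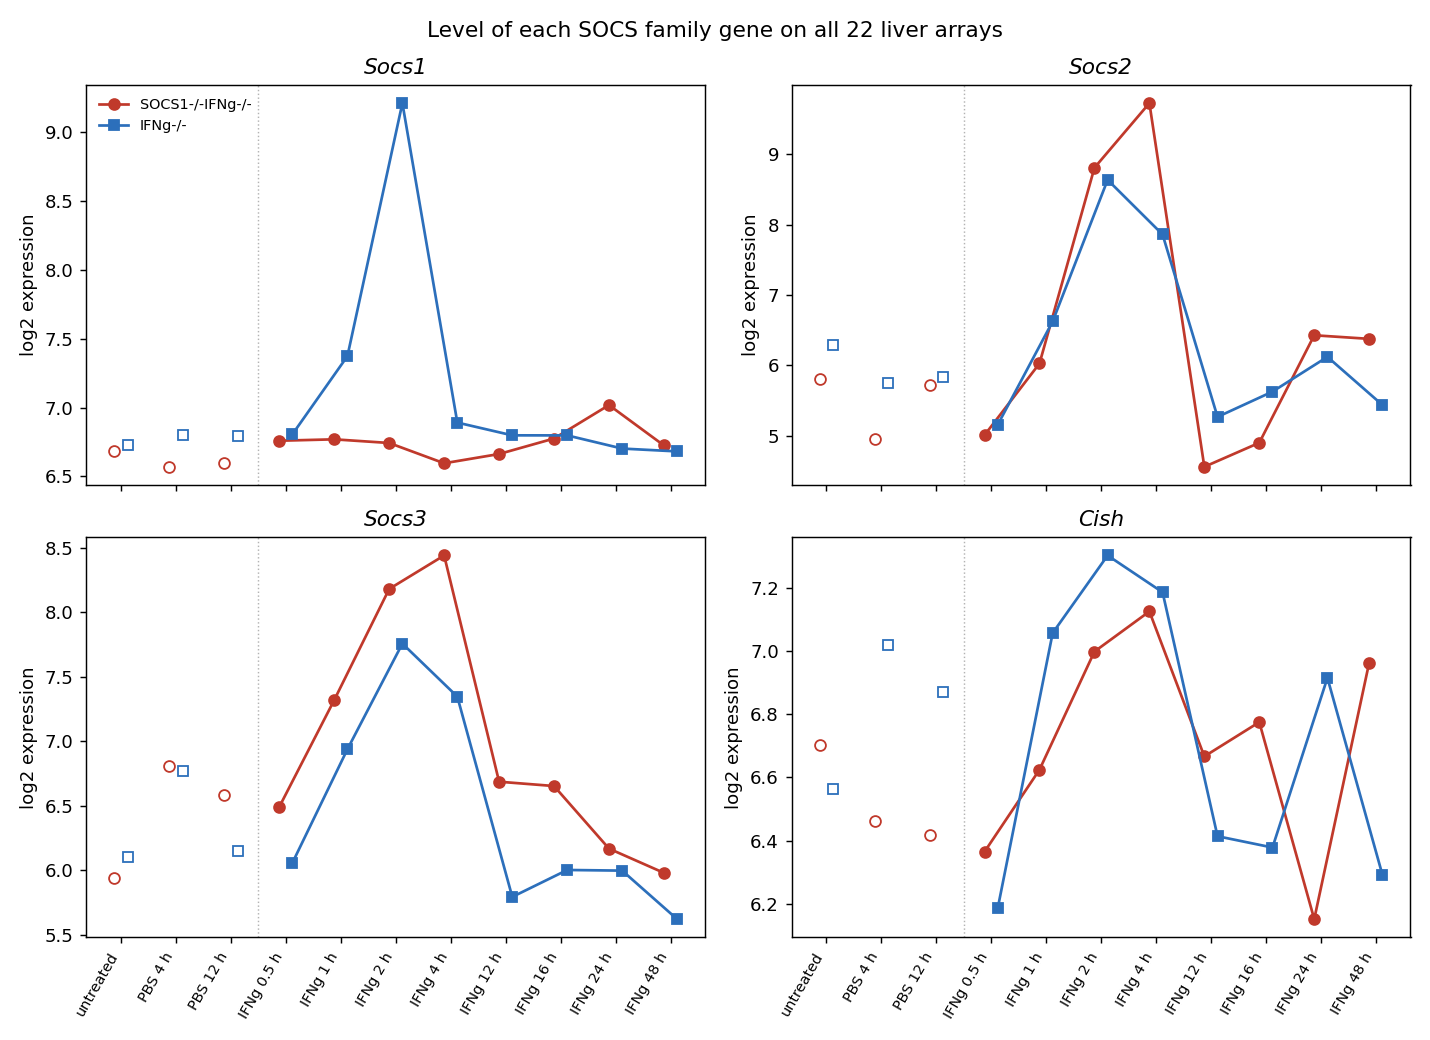
Log2 level (vertical axes, 1 panel per member) on each of the 22 arrays, by condition (horizontal axis, evenly spaced and not to scale in time), with 1 symbol per array for SOCS1-/-IFNg-/- and IFNg-/- livers. Socs1 stood at 9.21 on 1 array, IFNg-/- at 2 h, and Socs2 reached 9.72 in SOCS1-/-IFNg-/- livers at 4 h.

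Socs1 was close to flat in SOCS1-/-IFNg-/- livers and had a single peak at 2 h in IFNg-/- livers. In SOCS1-/-IFNg-/- livers it was 6.68 untreated, 6.57 and 6.59 after PBS at 4 and 12 h, and 6.76, 6.77, 6.74, 6.59, 6.66, 6.77, 7.02 and 6.72 at 0.5, 1, 2, 4, 12, 16, 24 and 48 h of interferon-gamma. In IFNg-/- livers it was 6.73 untreated, 6.80 and 6.79 after PBS, and 6.81, 7.37, 9.21, 6.89, 6.80, 6.80, 6.70 and 6.68 at the same 8 times. The 2 h value is 5.41-fold the mean of the IFNg-/- controls and the 1 h value 1.51-fold, and by 4 h the level was 1.08-fold that mean. Outside 1 and 2 h the ranges of the genotypes overlapped, and the untreated IFNg-/- level lay above the untreated SOCS1-/-IFNg-/- level by only 0.045. Which part of the gene the probes cover was not compared with the deletion, so these levels are no check of the deletion by themselves.

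Socs1 is the gene deleted in SOCS1-/-IFNg-/- mice, so its genotype difference is tied to the design. At 2 h that difference, -2.47, was the lowest among all 8251 genes. Set against the other 10 pairs, whose mean difference was -0.12, it differed by -2.35 ± 0.23 SE (95% interval -2.83 to -1.86, limma adjusted p = 0.000474). Socs1 was the only gene called in that comparison, 0.0121% of those tested. With a mean-variance trend and robust fitting the adjusted p was 0.0951. Pooled over genotypes, the Socs1 response at 2 h was 1.28 ± 0.35 and was not called (adjusted p = 0.0948); with array weights it was called (adjusted p = 0.0487). No other Socs1 response or genotype difference was called.

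Among the members that respond to interferon-gamma in both genotypes, Socs2 moved most. In SOCS1-/-IFNg-/- livers Socs2 was 5.81 untreated, 4.95 and 5.72 after PBS at 4 and 12 h, and 5.01, 6.03, 8.81, 9.72, 4.56, 4.90, 6.43 and 6.38 at the 8 interferon-gamma times from 0.5 to 48 h. In IFNg-/- livers it was 6.29 untreated, 5.75 and 5.84 after PBS, and 5.16, 6.63, 8.63, 7.86, 5.27, 5.63, 6.12 and 5.44. At 2 and 4 h all 4 livers lay above all 6 controls, which ran up to 6.29. At 2 h Socs2 was 9.93-fold its control mean in SOCS1-/-IFNg-/- livers and 6.38-fold in IFNg-/- livers, and at 4 h it was 18.8-fold in SOCS1-/-IFNg-/- livers and 3.73-fold in IFNg-/- livers.

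Socs2 rose at 2 h by 2.99 ± 0.39 (adjusted p = 0.00071) and at 4 h by 3.06 ± 0.39 (adjusted p = 0.000453). Of all genes, 1.24% were called higher at 2 h and 3.14% at 4 h, and 2 of the 4 members, Socs2 and Socs3, were among them at both times. Against the PBS livers of the same hour the rise was 3.44 ± 0.48 at 4 h (10.9-fold, adjusted p = 0.00196), where 0.994% of genes were called higher. Without both PBS 12 h arrays the responses at 2 and 4 h were 3.02 and 3.09 and were called, and without the 4 h pair the 2 h response was 2.99 and called. By 12 h Socs2 stood at the lowest level of its course in SOCS1-/-IFNg-/- livers, 4.56, and at 5.27 in IFNg-/- livers; the 12 h response of -0.81 was not called (adjusted p = 0.392), nor was the difference from PBS 12 h, -0.86 (adjusted p = 0.78), where 0.109% of all genes were called. The 4.56 comes from the array with the largest Gapdh 3' to 5' difference, whose part in it was not tested.

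**Figure D2:**
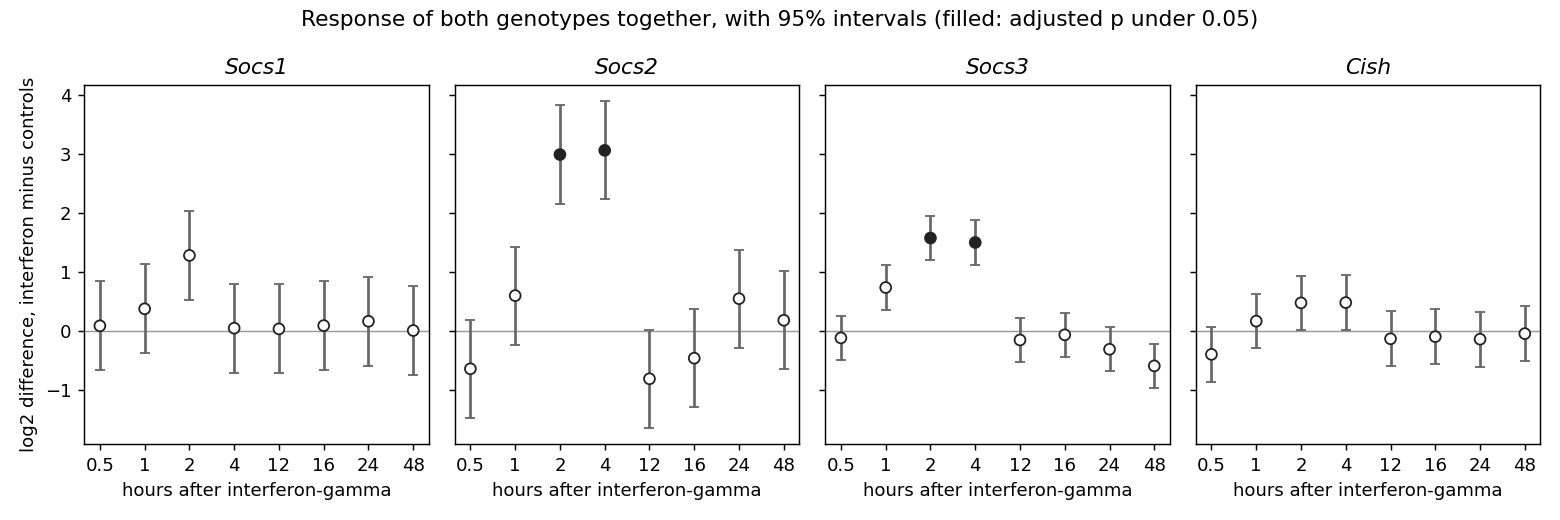
Response to interferon-gamma (vertical axis, log2, mean of both genotypes minus mean of the 6 control arrays; bars are 95% intervals of the limma fit) for each member at the 8 times, evenly spaced; filled points passed the threshold. Socs2 and Socs3 were called at 2 and 4 h, and no member was called at 12, 16, 24 or 48 h.

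Between genotypes, Socs2 was higher in SOCS1-/-IFNg-/- livers in 4 of 11 conditions, so its difference had no steady direction. At 4 h it was 9.72 in SOCS1-/-IFNg-/- and 7.86 in IFNg-/- livers, a difference of 1.86. Counted from the most positive difference down, that ranked 37 among all genes, and later ranks are counted in the same way. At 2 h, with 8.81 in SOCS1-/-IFNg-/- and 8.63 in IFNg-/- livers, the difference was 0.17. The 4 h difference exceeded the mean of the other pairs by 2.08 ± 0.47 (95% interval 1.07 to 3.09, adjusted p = 0.0248), and 277 genes, 3.36%, were called in that comparison. It kept its call in all 8 fits that left out another pair, at 2.02 to 2.21, and lost it with a trend and robust fitting (adjusted p = 0.0887). The 4 h SOCS1-/-IFNg-/- array on which this rests is the one that stood apart from the rest, and its part in the result was not tested.

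At 48 h Socs2 was 6.38 in SOCS1-/-IFNg-/- and 5.44 in IFNg-/- livers. That difference of 0.94 ranked 5 among all genes at that time, but against the other pairs it was 1.06 ± 0.68 (adjusted p = 0.991), and no gene was called in the comparison (smallest adjusted p 0.701). The SOCS1-/-IFNg-/- array at 48 h had the largest Actb 3' to 5' difference, 1.56, against up to 1.33 on the others. Its part in the 48 h value was not tested. At 12 and 16 h the Socs2 genotype differences were -0.71 and -0.73, and neither was called. Averaged over phases the genotype difference was -0.064 (95% interval -0.50 to 0.37).

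Socs3, the feedback inhibitor of gp130 signalling, responded over the same hours with a smaller range. In SOCS1-/-IFNg-/- livers Socs3 was 5.94 untreated, 6.80 and 6.58 after PBS at 4 and 12 h, and 6.49, 7.32, 8.18, 8.44, 6.69, 6.65, 6.17 and 5.98 at the 8 interferon-gamma times. In IFNg-/- livers it was 6.10 untreated, 6.77 and 6.15 after PBS, and 6.06, 6.94, 7.76, 7.35, 5.79, 6.001, 5.996 and 5.62. At 1, 2 and 4 h all 6 livers lay above every control, and at 12 and 48 h in IFNg-/- livers the level was below every control. At 4 h it was 4.00-fold the control mean in SOCS1-/-IFNg-/- livers and 2.01-fold in IFNg-/- livers.

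Socs3 rose by 1.58 ± 0.18 at 2 h (2.98-fold, adjusted p = 0.000202) and by 1.50 ± 0.18 at 4 h (2.83-fold, adjusted p = 0.000218). Its response at 1 h was 0.74 ± 0.18 and was not called (adjusted p = 0.201), where 0.158% of all genes were. That call depends on the setting: adjusted p = 0.0194 with array weights, 0.031 without the 4 h pair, and 0.00147 for the gene's other probe set, which gave 1.29. The PBS and untreated livers were also set against each other for Socs3, and the difference was not called. Both PBS 4 h livers, at 6.80 and 6.77, lay above the untreated livers at 5.94 and 6.10, and PBS against untreated was 0.56 ± 0.19 (adjusted p = 0.294; 2 of all genes, 0.0242%, were called). Against PBS of the same hour the 4 h rise was 1.11 ± 0.22 (2.15-fold, adjusted p = 0.0206), and with array weights it was not called (adjusted p = 0.177). Injection or handling cannot be told apart from interferon-gamma at 1 and 2 h, for want of PBS livers taken then.

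Of the 4 members Socs3 differed between genotypes in the same direction most often. It was higher in SOCS1-/-IFNg-/- livers in 10 of 11 conditions and in 8 of 8 interferon-gamma times, and the untreated pair was the exception, with 5.94 in SOCS1-/-IFNg-/- and 6.10 in IFNg-/-. Its differences of 1.10, 0.89 and 0.65 at 4, 12 and 16 h were the largest, and the other interferon-gamma times gave 0.17 to 0.43. The mean over phases was 0.40 ± 0.08 (1.32-fold, 95% interval 0.22 to 0.58) and fell short of the threshold (adjusted p = 0.0744), in a comparison that called 18 genes, 0.218%. That count ran from 0 with a trend and robust fitting, where Socs3 had an adjusted p of 0.793, to 71 with array weights, where Socs3 was called (0.41, adjusted p = 0.017). Without the 12 h pair, which holds the array with the largest Gapdh 3' to 5' difference, the mean was 0.36 and was not called. Without the 4 h pair, which holds the array that stood furthest apart, the mean was 0.34 and was not called.

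The second Socs3 probe set, whose mean is lower, gave a larger difference. It was higher in SOCS1-/-IFNg-/- livers in 11 of 11 conditions, by 0.19 to 1.11, with a mean over phases of 0.59 (adjusted p = 0.009). Its differences were 0.30 untreated, 0.31 after PBS at 4 h and 1.01 after PBS at 12 h, a control mean of 0.54, and averaged 0.62 over the 8 interferon-gamma times. The excess of early over control pairs was 0.019. Both PBS 12 h arrays, which stood apart, carry much of that control mean, and without them it was 0.30, the early excess 0.26 and the mean over phases 0.52 (adjusted p = 0.0355). For the first probe set the control differences were -0.16, 0.030 and 0.43, with a mean of 0.10 and an early excess of 0.48 ± 0.21 (adjusted p = 0.998). Without the PBS 12 h arrays these were -0.065 and 0.65, so the direction of its control difference rests on that pair. Without the 4 h pair, which holds the array that stood furthest apart, the early excess fell to 0.31. No control difference or early excess of either probe set was called. In the comparison of early with control pairs 0% of the 8251 genes were called by limma, and 287 had an unadjusted p under 0.05. The Socs3 difference of the 4 h pair was 0.73 ± 0.26 above that of the other pairs and was not called (adjusted p = 0.157).

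**Figure D3:**
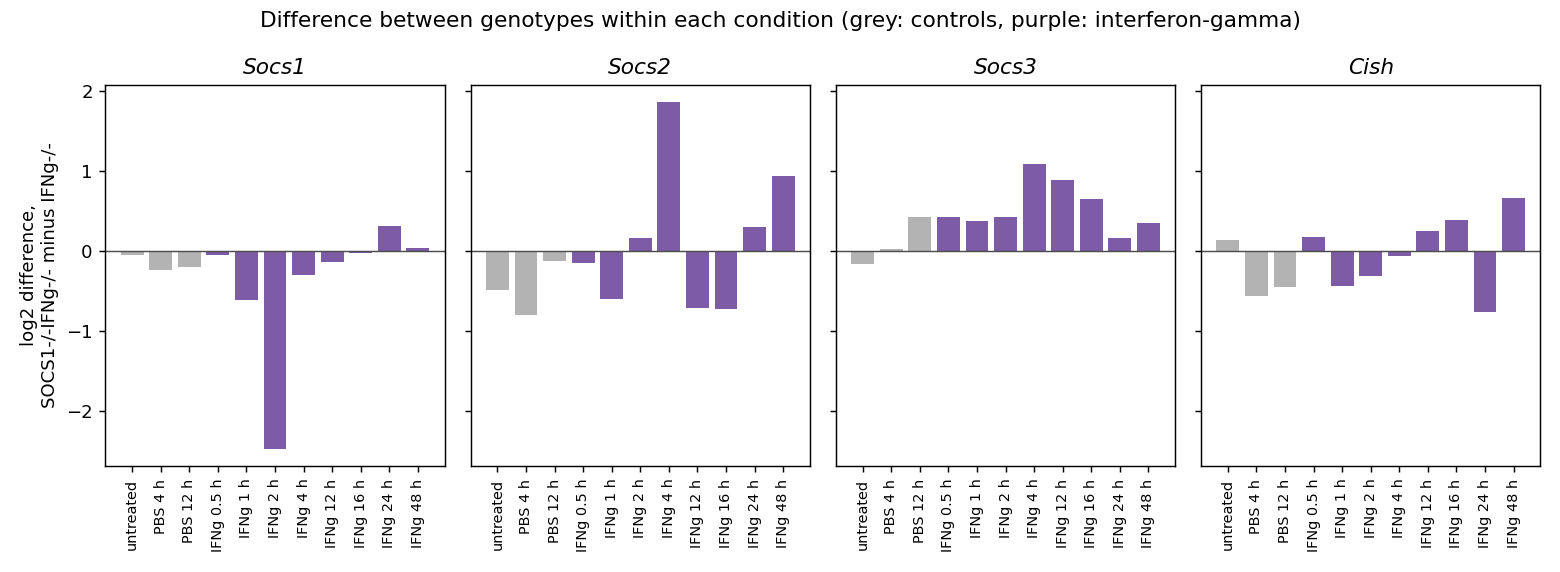
Genotype difference (vertical axis, log2, SOCS1-/-IFNg-/- minus IFNg-/-) as 1 bar per condition for each member, grey for the 3 control conditions and purple for the 8 interferon-gamma times. Socs3 lay above 0 in 10 of 11 conditions, Socs1 reached -2.47 at 2 h and Socs2 reached 1.86 at 4 h.

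Cish, a STAT5 target like Socs2, had the smallest range of the 4 members, between 6.15 and 7.30. In SOCS1-/-IFNg-/- livers Cish was 6.70 untreated, 6.46 and 6.42 after PBS, and 6.37, 6.62, 6.998, 7.12, 6.67, 6.77, 6.15 and 6.96 at the 8 interferon-gamma times. In IFNg-/- livers it was 6.56 untreated, 7.02 and 6.87 after PBS, and 6.19, 7.06, 7.30, 7.19, 6.41, 6.38, 6.91 and 6.29. Its largest responses were at 2 and 4 h, both 0.48 ± 0.22 (adjusted p = 0.432 and 0.256), with 95% intervals of 0.012 to 0.94 and 0.018 to 0.95. At 2 h the SOCS1-/-IFNg-/- level of 6.998 lay within the range of the controls, whose highest was 7.02. Against PBS 4 h the difference was 0.41 (95% interval -0.15 to 0.98). Cish was higher in SOCS1-/-IFNg-/- livers in 5 of 11 conditions, with a mean over phases of -0.10 (95% interval -0.34 to 0.14), and 0 of its tests were called.

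At 0.5 h no member was called. Of all 8251 genes 0% were called by limma (478 at an unadjusted p under 0.05), with a smallest adjusted p of 0.369. Nor was any called at 1 h. Averaged over both genotypes, the order of the responses at 2 h was Socs2 (2.99), Socs3 (1.58), Socs1 (1.28) and Cish (0.48), and the 95% intervals of neighbours overlapped between Socs3 and Socs1 (1.20 to 1.95 and 0.53 to 2.04) and between Socs1 and Cish (0.012 to 0.94) but not between Socs2 (2.16 to 3.83) and Socs3. The Socs1 mean includes the SOCS1-/-IFNg-/- livers, in which it was 0.13 above its control mean. In IFNg-/- livers alone the levels at 2 h lay above their control means by 2.67 for Socs2, 2.44 for Socs1, 1.42 for Socs3 and 0.48 for Cish, each from 1 array, and Socs1 came second. At 4 h the order over both genotypes was Socs2 (3.06), Socs3 (1.50), Cish (0.48) and Socs1 (0.048). From 12 h on, 0 members were called, beside 1.42% of all genes at 12 h, 0.448% at 16 h and 0.17% at 24 h. Their responses lay between -0.81 and 0.55, and the largest fall of Socs3, -0.59 ± 0.18 at 48 h, was not called (adjusted p = 0.45), where 1 gene of all, 0.0121%, was.

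Socs2 and Socs3 had a Pearson r of 0.76 over 22 arrays that share the same interferon-gamma times, and in each genotype both were highest at 2 and 4 h. Later they did not move alike in SOCS1-/-IFNg-/- livers. At 24 and 48 h Socs2 was 6.43 and 6.38 there, above every control, and Socs3 was 6.17 and 5.98, within its control range. In IFNg-/- livers at these times Socs2 was 6.12 and 5.44, and Socs3 5.996 and 5.62. Socs2 and Cish had an r of 0.66 and Socs3 and Cish 0.63. Without the 4 arrays of 2 and 4 h, the r of Socs2 and Cish was 0.34 over 18 arrays. Among 755 genes with a standard deviation of at least 0.25, those most like Socs3 were Clp1, an RNA kinase (r = 0.92), Junb, an immediate early factor (0.91), the adaptor Myd88 (0.91), the oncostatin M receptor Osmr (0.91) and the chemokine Ccl2 (0.90), and over the 18 arrays these were 0.80, 0.82, 0.73, 0.67 and 0.70. Those most like Socs2 were the transcription factor Gata6 (0.89), the kinase Pim3 (0.89), Susd6 (0.88), Gramd3 (0.87) and Myd88 (0.86). Over the 18 arrays those r values lay between -0.14 and 0.40, so these likenesses rest on the 2 and 4 h arrays.

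Cish was most like Phlda1 (0.79), Foxq1 (0.71), Pex11a (0.69), Mmp13 (0.67) and Socs2, and no gene reached 0.9. For Socs1 the 11 IFNg-/- arrays were used, and the most alike of 527 genes were the chemokine Cxcl10 (0.97), the nucleotide kinase Cmpk2 (0.97), Daxx (0.97), the antiviral Mx1 (0.95) and the transcription factor Klf6 (0.95). Without 2 and 4 h, 9 arrays gave 0.97 for Cxcl10, 0.85 for Daxx and 0.67 for Cmpk2, but 0.081 for Mx1 and 0.34 for Klf6. On these arrays Socs1 was 7.37 at 1 h and lay between 6.68 and 6.81 on all others, and no r without the 1 h array was computed. By Spearman's rank correlation 1 of these 5 genes stayed among the first 5 for Socs1, 2 for Socs2, 1 for Socs3 and 4 for Cish.

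The other negative regulators of JAK-STAT signalling were counted from a list of 17, of which 13 were measured. Socs5, the further SOCS gene among them, lay between 6.44 and 6.85 on all arrays and was not called in any comparison, with a 4 h response of -0.057 (95% interval -0.22 to 0.11). Of the 13, 1 rose at 2 h and 3 at 4 h: Usp18, which removes ISG15 and blocks the type I interferon receptor, by 2.16 ± 0.53, and the tyrosine phosphatases Ptpn1 by 1.04 ± 0.15 and Ptpn2 by 0.77 ± 0.16, both of which act on JAKs or STATs. At 2 h the one called was Ptpn1, by 0.73 ± 0.15, and Usp18 was 2.15 ± 0.53 without passing the threshold (adjusted p = 0.0574). Of all genes, 1.24% were called higher at 2 h and 3.14% at 4 h. The list's median response was 0.020 at 2 h and 0.12 at 4 h, against -0.016 and -0.030 over all genes. Of the 13, only Ptpn1 was called against PBS 4 h (0.86 ± 0.18, adjusted p = 0.0337), where 0.994% of all genes were called higher.

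Usp18, Ptpn1 and Ptpn2 were picked by a pooled 4 h response that includes the SOCS1-/-IFNg-/- array at 4 h. That choice favours genes high on this array, so their genotype differences at 4 h are given as sizes only. Usp18 was 8.41 in SOCS1-/-IFNg-/- and 8.08 in IFNg-/- livers at 2 h, and 10.3 in SOCS1-/-IFNg-/- and 6.27 in IFNg-/- livers at 4 h. Above the control mean of its genotype it was 2.09 in SOCS1-/-IFNg-/- and 2.21 in IFNg-/- livers at 2 h, and 3.92 in SOCS1-/-IFNg-/- and 0.40 in IFNg-/- livers at 4 h, so the pooled 4 h rise rests on 1 array. Its 4 h difference exceeded that of the other pairs by 3.62 ± 0.23. Ptpn1 was 8.86 in SOCS1-/-IFNg-/- and 8.03 in IFNg-/- livers at 4 h, an excess of 0.77 ± 0.19 over the other pairs. Ptpn2 was 5.42 in SOCS1-/-IFNg-/- and 4.64 in IFNg-/- livers, an excess of 0.83 ± 0.21. The array that stood apart carries the SOCS1-/-IFNg-/- level of each of these genes at 4 h, and so each of these excesses.

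Upstream of the SOCS genes, 2 of 8 receptor and kinase genes rose at 4 h and 0 at 2 h, beside 3.14% and 1.24% of all genes called higher. These were Jak1 (0.41 ± 0.07) and Jak2 (0.57 ± 0.14), the kinases of the interferon-gamma receptor. Of 9 measured STAT and interferon regulatory factor genes 3 rose at 2 h and 4 at 4 h, led by Irf1 (3.43 ± 0.42 at 2 h, 2.17 ± 0.42 at 4 h) and Irf8 (2.34 ± 0.35 and 1.73 ± 0.35). Irf7 rose by 1.12 ± 0.23 and Stat3 by 0.68 ± 0.10 at 4 h. Stat5a and Stat5b, the factors upstream of Cish and Socs2 in growth hormone signalling, were 0.061 and 0.060 at 4 h and were not called. Of 13 interferon-gamma target genes, 10 rose at 2 h and 12 at 4 h, with list medians of 2.31 and 2.38. Against the PBS livers of the same hour fewer were called higher at 4 h, beside 0.994% of all genes. These were 1 of the 8 receptor and kinase genes, 2 of the 9 STAT and interferon regulatory factor genes and 11 of the 13 target genes.

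The pathways that the members restrain were described in the same way. Of 11 measured genes of the growth hormone and STAT5 axis, 0 were called at 2 h or 4 h, with medians of -0.0057 and -0.13. With 1.24% and 3.14% of all genes called higher at these times, a list of this length is too short for 0 calls to set it apart. Igf1, the main growth hormone target of liver, was 0.045 at 2 h and -0.13 at 4 h, and the growth hormone receptor gene Ghr 0.018 and -0.14. Of 22 measured genes of the interleukin-6 and STAT3 axis, 5 rose at 2 h (Saa2 by 2.11, Cebpd by 1.64, Osmr by 1.40, Junb by 1.31 and Pim1 by 0.41) and 7 at 4 h, and their medians were 0.36 and 0.34. Against PBS 4 h, 4 of these 22 genes were called higher, beside 0.994% of all genes. Later on Lcn2, a secreted acute phase protein, rose by 4.50 ± 0.41 at 24 h and Saa3 by 2.95 ± 0.51 at 16 h. Of 4 measured SOCS box partners, 0 were called at either time, and the same holds for their count. Their medians were -0.042 and 0.039.

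**Figure D4:**
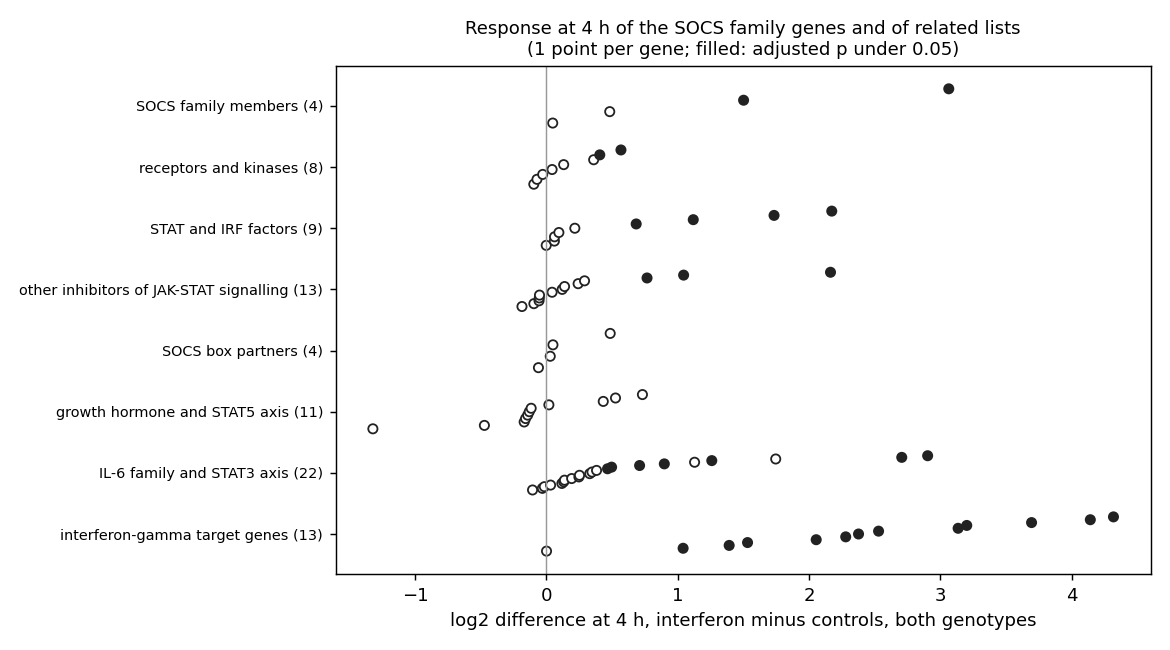
Log2 response at 4 h (horizontal axis, mean of both genotypes minus mean of the 6 control arrays), 1 point per measured gene, for the members and the lists around them, with the number measured in brackets. Filled points passed the threshold: 2 of the 4 members, 3 of the 13 other inhibitors and 0 of the 11 genes of the growth hormone axis, beside 5.03% of all genes. At that share a list of 11 is too short for 0 calls to set it apart.

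Averages of cell type markers differed between some of these conditions. The 5 measured of 6 hepatocyte markers averaged 11.94 in SOCS1-/-IFNg-/- and 12.02 in IFNg-/- livers at 4 h of interferon-gamma, against 12.17 to 12.35 on the control arrays. Of these 5, 1 was called lower at 4 h, beside 1.89% of all genes. The 6 measured neutrophil markers of 6 averaged 5.36 to 5.52 in SOCS1-/-IFNg-/- and 5.34 to 5.42 in IFNg-/- livers at 0.5 to 4 h, against 5.15 to 5.31 on the control arrays, and were 5.73 in SOCS1-/-IFNg-/- at 12 h. The markers did not vary alike. S100a8, a calcium-binding protein abundant in neutrophils, was 4.67 to 5.45 in SOCS1-/-IFNg-/- and 4.38 to 4.58 in IFNg-/- livers at 0.5 to 4 h, against 3.85 to 4.38 on the control arrays, and at 12 h 5.69 in SOCS1-/-IFNg-/- and 3.93 in IFNg-/- livers. Its partner S100a9 ran from 3.95 to 5.35 over all arrays and was also highest in SOCS1-/-IFNg-/- livers at 12 h. The other 4 markers had narrower ranges, such as 4.996 to 5.34 for Ly6g and 4.75 to 5.03 for Ngp, and the 6 markers gave 0 calls at 2 and 4 h. The 6 measured of 7 Kupffer cell and macrophage markers averaged 6.03 and 5.98 in SOCS1-/-IFNg-/- livers at 12 and 16 h, and 6.45 and 6.39 in IFNg-/- livers, against 6.46 to 6.68 on the control arrays. At 48 h this average was 6.93 in both genotypes, above every control array. These 6 markers also varied unequally, from 5.29 to 7.77 for Cd5l and 5.85 to 6.44 for Adgre1. None of them was called at 12, 16 or 48 h, beside 1.42%, 0.448% and 0.0121% of all genes. The part of these shifts in the members' values at the same times was not tested.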

How the data were processed

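Liver RNA was measured on Affymetrix 3' arrays; Trizol extraction, RNeasy clean-up and biotin labelling are stated per the labels' protocols. The deposited values are log2 expression per probe set, normalized by the authors with the affy package, per the submitters' processing notes; how background was corrected, arrays normalized and probes summarised is not given in the sources used here. No value was missing, and the log2 scale was read from their range, 1.73 to 13.5. The number of arrays, 1 per genotype and condition, limits the precision.

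Of 12488 probe sets, 66 controls were left out; 10833 carried 1 gene symbol, 396 several and 1193 none. The probe set with the highest mean stood for each of 8251 genes. Symbols were checked against RefSeq on GRCm38.p6. Differences were tested with limma 3.58.1 (lmFit, eBayes; R 4.3.3), adjusted over all genes: condition plus genotype over 22 arrays for responses, and the 11 within-condition differences for genotype. Phases were controls, early (0.5 to 4 h) and late (12 to 48 h). Settings tried were a trend with robust fitting, array weights, quantile normalization, a filter at the 25th percentile of mean level, all probe sets, the other probe set, no pairing, and arrays left out in pairs. Correlations, motif searches and figures used Python 3.11.15. Genes named from lists are up to 4 per list by size among those called, and others were chosen after their values were seen, as was the GAAANNGAAA motif. The members and lists were chosen with earlier results of these data known. On simulated data with known changes, log2 changes of 1 were recovered for 95% of genes in the 4 h response and 82% in the 4 h pair. False calls there were 12 and 16. The simulation gave a gene the same spread on every array and no array that stood apart, so these shares may not hold here.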

Additional observations from a re-analysis of the deposited data

Results flagged for a closer look

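Socs1, the gene deleted in SOCS1-/-IFNg-/- mice, differed between genotypes at 2 h by more than in the other conditions. It was 6.74 in SOCS1-/-IFNg-/- and 9.21 in IFNg-/- livers, and the 2 h pair differed from the other 10 pairs by -2.35 ± 0.23 on the log2 scale (limma adjusted p = 0.000474). Socs2 differed between genotypes at 4 h by more than in the other conditions. It was 9.72 in SOCS1-/-IFNg-/- and 7.86 in IFNg-/- livers, and the 4 h pair differed from the other 10 pairs by 2.08 ± 0.47 (adjusted p = 0.0248). Each rests on 1 array per genotype, and its adjustment does not cover the choice among 8 times.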

How the results depend on the processing

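For the 4 members 96 values were recomputed under 19 settings, which gave 1515 alternative values, and 1473 of them kept their direction and their side of the threshold. With a trend and robust fitting the Socs1 difference of the 2 h pair (-2.35, adjusted p = 0.0951) and the Socs2 difference of the 4 h pair (2.08, adjusted p = 0.0887) were not called. With array weights the Socs3 rise against PBS 4 h (1.11) was not called, and the Socs3 mean genotype difference (0.41) was; with the other probe set that difference was 0.59 and called, and 0.52 and called when both PBS 12 h arrays were also left out, a setting added after the data were seen. The 31 values that changed sign belonged to results called in no setting. With quantile normalization these were the Socs1 response at 48 h (-0.0023), Socs3 in the 2 h pair (0.015) and Cish in the 4 h pair (-0.00080). Without both PBS 12 h arrays they were the Socs3 difference in controls (-0.065) and Cish in the 4 h pair (-0.014), without both untreated arrays Socs3 in the 0.5 h pair (-0.060), with the other probe set Socs3 in the 0.5 h pair (-0.037), and with array weights Socs3 in the 1 h (0.0032) and 2 h (0.058) pairs. Leaving out 1 pair at a time moved the Socs3 response between -0.12 and 0.080 at 0.5 h, -0.15 and 0.045 at 12 h and -0.065 and 0.13 at 16 h, and the Socs2 response at 48 h between -0.0061 and 0.18. The Socs2 mean genotype difference ran from -0.24 to 0.039, Socs1 interferon minus controls from -0.34 to 0.053, Socs2 in the 0.5 h pair from -0.22 to 0.077, Socs3 in the 0.5, 1 and 2 h pairs from -0.039 to 0.079, -0.096 to 0.022 and -0.049 to 0.070, Socs1 in the 4 and 12 h pairs from -0.19 to 0.12 and -0.014 to 0.30, and Cish in the 4 h pair from -0.049 to 0.11. The pooled responses of Socs2 and Socs3 at 2 and 4 h were called in every setting run. Without pairing, the adjusted p of the Socs3 mean genotype difference was 0.999. The cause of each change was not tested. The counts of genes called moved too: at 1 h 13 became 43 with array weights and 47 without the 4 h pair, at 2 h 137 became 420 and 287, and at 4 h 415 became 84 with array weights, 262 without both PBS 12 h arrays and 228 without both untreated arrays. Against PBS 4 h 112 became 23 with array weights. For the mean genotype difference 18 became 0 with a trend and robust fitting, 71 with array weights, 4 without pairing, 7 without both PBS 12 h arrays, 10 without both untreated arrays, and 8 to 31 with another pair left out; for the controls 1 became 27 with array weights, and for PBS against untreated 2 became 51.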

Other observations

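At 48 h, when the interferon-gamma target genes averaged 6.28 in SOCS1-/-IFNg-/- and 6.09 in IFNg-/- livers, 2 members were among the genes with the most positive genotype differences. The SOCS1-/-IFNg-/- array at that time had the largest Actb 3' to 5' difference, 1.56, whose part in these values was not tested. Socs2 was 6.38 in SOCS1-/-IFNg-/- and 5.44 in IFNg-/- livers, rank 5 of 8251. Cish was 6.96 in SOCS1-/-IFNg-/- and 6.29 in IFNg-/- livers, rank 15. Neither differed from its other pairs past the threshold (limma adjusted p = 0.991 for both), and at 24 h Cish lay the other way, at 6.15 in SOCS1-/-IFNg-/- and 6.91 in IFNg-/- livers.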
